A study of Bos taurus with 16 samples.

Results

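Retinoid metabolism and binding is represented here by 9 genes that carry vitamin A (retinol), turn it into retinoic acid or bind that product: RBP4, STRA6, SDR16C5, RDH10, ALDH1A1, ALDH1A2, ALDH1A3, CRABP1 and CRABP2. Members were all probes that the array design names by one of these symbols, which gave 19 of the 43653 probes that are not controls and covered 8 of the 9 genes. STRA6 had 5 probes, ALDH1A1 and CRABP2 3 each, RBP4, RDH10 and CRABP1 2 each, SDR16C5 and ALDH1A3 1 each, and ALDH1A2 none under its own name. The tissue was endometrium, which lines the uterus, taken by biopsy from 4 cows described as fertile. Every cow was sampled 4 times after parturition, nominally on days 10, 30, 50 and 100, and the recorded days were 9 to 10, 29 to 30, 49 to 51 and 99 to 100. There was 1 array per cow and time, 16 in all, and a comparison asks how a later time differed from an earlier one in the same cows. No age, breed, treatment or ovarian stage of the cows is given in the sources used here. A level below is the log2 processed signal of a probe minus the percentile 75 of its array, so 0 is that percentile and levels of different probes are not comparable with each other.

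Retinol travels in blood bound to RBP4, enters cells through the membrane receptor STRA6 and is either stored as an ester or oxidised. The oxidation has a first step to retinaldehyde by retinol dehydrogenases such as SDR16C5 and RDH10, and a further step to retinoic acid by the ALDH1A enzymes. Retinoic acid is bound in the cytosol by CRABP1 and CRABP2 and acts through nuclear receptors on gene transcription. In cattle the endometrium is known to make and secrete RBP4.

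SDR16C5 was the member that passed the test. It was 52.1-fold higher at day 50 than at day 10 and 40.7-fold higher at day 100 than at day 10, in 4 of 4 cows at both times. The day 50 call held in 0 of 4 fits without a cow and the day 100 call in 1 of 4, as described with its values. The fits without a cow that lost a call also called fewer of all probes. The day 50 call was also lost on the 8 arrays of days 50 and 10 alone, where 889 of all probes were called, against 548. The day 100 call was lost on the 8 arrays of days 100 and 10, where 44 were called, against 1527. CRABP1 was higher at day 50 and at day 100 than in any day 10 biopsy without passing, and CRABP2 was lower at day 100 than in any day 10 biopsy without passing. RBP4, STRA6, RDH10, ALDH1A1 and ALDH1A3 did not pass in any comparison, and their levels at day 10 overlapped with those at every later time.

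A call here is an adjusted p under 0.05 in limma, a linear model with moderated variances, fitted with cow as a block and adjusted by the Benjamini-Hochberg method over all 33182 tested probes. Of the 19 member probes 17 were tested, since 1 CRABP2 probe exceeded background clearly on 3 of the 16 arrays and 1 STRA6 probe did so on 1. At day 50 over day 10, 1 of 17 member probes was called, a higher one, against 0.597% of all probes called higher, 1.05% called lower and 1.65% called in either direction. At day 100 over day 10, 1 of 17 was called, again higher, against 1.46% called higher, 3.14% called lower and 4.6% in either direction. At an unadjusted p under 0.05 there were 3 of 17 members at each of these times, against 18.6% of all probes at day 50 and 25.7% at day 100. At day 30 over day 10 limma called 0 of 17, against 0.419% of all probes called, 0.0121% higher and 0.407% lower, and 1 of 17 had an unadjusted p under 0.05, against 14% of all probes. Between the later times limma called 0 of 17 in each comparison, where 0% of all probes were called. At an unadjusted p under 0.05 there were 3 members for day 50 over day 30, against 9.32% of all probes, 3 for day 100 over day 30, against 12.8%, and 0 for day 100 over day 50, against 3.14%. The F test over all 4 times called 0 of 17, against 1.03% of all probes, and 3 had an unadjusted p under 0.05, against 18.9%. A single called probe of 17 is not a result about the members as a group.

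Groups of 4 arrays that did not overlap between 2 times were counted as well. They were seen in 3 member probes for day 50 over day 10, against 16.9% of all probes, and in 4 for day 100 over day 10, against 11%. For day 50 over day 30 there was 1, against 7.59%, and for day 30 over day 10 there were 0, against 8.51%. Day 100 over day 30 and day 100 over day 50 had 0, against 2.99% and 2.09%. The median log2 difference over the 17 tested probes was -0.33 at day 30, 0.84 at day 50 and 0.44 at day 100, each over day 10, and over all tested probes it was -0.01, -0.03 and -0.07. These comparisons share the day 10 arrays, so their values are not independent of each other.

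**Figure D1:**
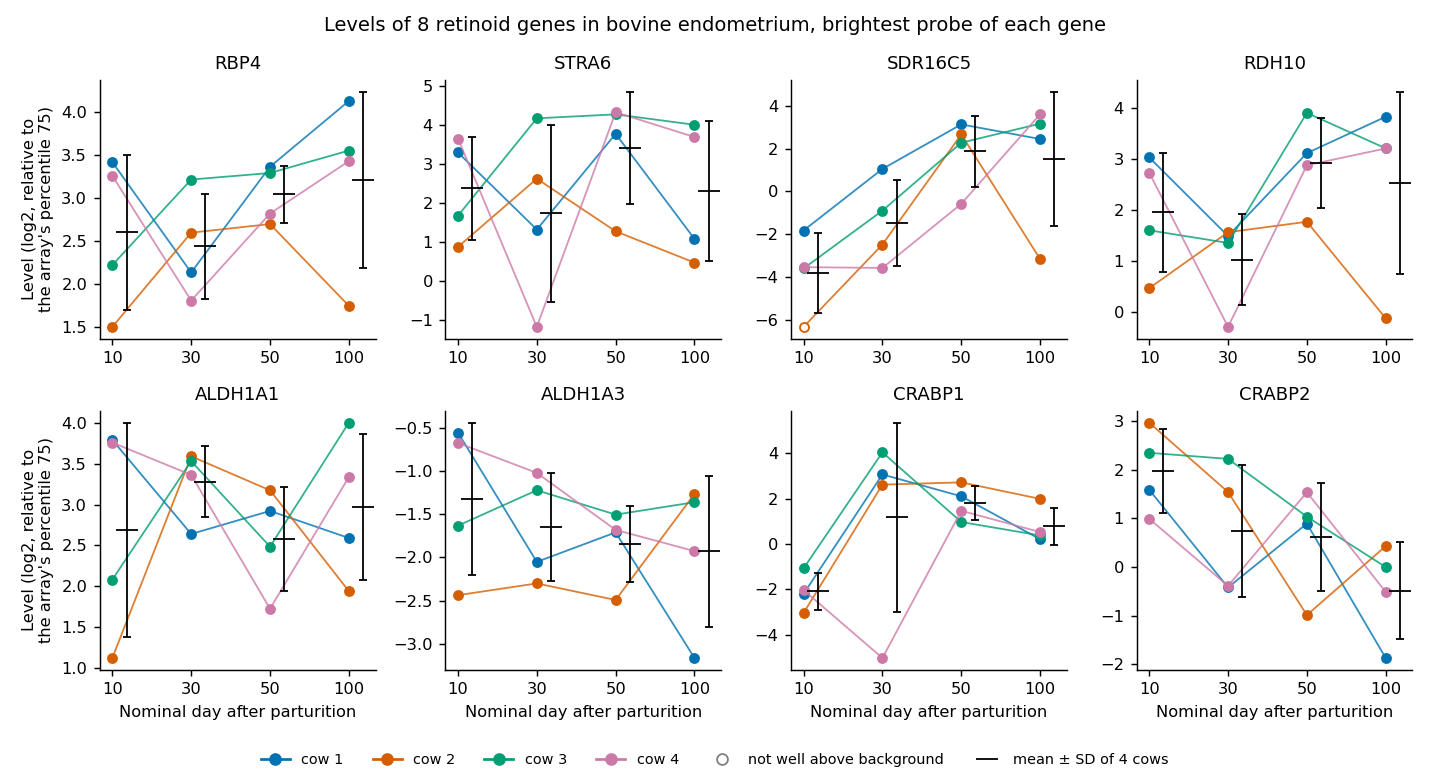
Levels of the brightest probe of each gene against the nominal day after parturition (evenly spaced), as log2 processed signal relative to the array's percentile 75, on a separate axis for each gene. Each line is a cow, an open point was not well above background, and black bars give the mean and SD of 4 cows. SDR16C5 was lowest at day 10 in 3 of 4 cows, and CRABP1 in cow 4 stood at -5.04 at day 30 while the other 3 cows stood between 2.61 and 4.04.

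Levels of cell type markers differed between the biopsies, and several members varied with them. Even so, limma called 0 epithelial and 0 smooth muscle markers over day 10 at any later time. Epithelial markers (17 of 18 tested, averaged as log2 levels after centring each probe over the arrays) ranged from -2.74 to 0.84 at day 10, from -2.21 to 0.40 at day 30, from 0.72 to 1.34 at day 50 and from -3.85 to 2.82 at day 100. The lowest arrays were cow 2 at day 100, cow 2 at day 10 and cow 4 at day 30, and the highest was cow 1 at day 100. Smooth muscle markers (13 of 15 tested) ranged from -1.75 to 1.61, from -0.35 to 1.94, from -1.57 to 1.57 and from -3.60 to 2.21 at the 4 times in the same order, with the lowest value in cow 1 and the highest in cow 2 at day 100. Macrophage markers (12 of 12 tested) ranged from 0.80 to 2.71 at day 10, from -1.49 to 0.27 at day 30, from -1.68 to 1.096 at day 50 and from -1.40 to 0.12 at day 100. Over day 10, limma called 6 of the 12 lower at day 30, 5 at day 50 and 12 at day 100. Of all probes, 0.407%, 1.05% and 3.14% were called lower at these times. Neutrophil markers (6 of 10 tested) ranged from -0.02 to 4.44 at day 10 and from -1.79 to 1.75 at the later times. Of 7 placental markers 2 were tested, PRP1 well above background on 15 arrays and PAG1 on 7, while CSH2, PAG2 and GCM1 were so on at most 2. In such bulk tissue, fewer cells of a type and less RNA per cell cannot be told apart. Each cow had a slide of its own, so cow and slide are the same block.

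RBP4, the plasma carrier of retinol, did not pass in any comparison. Its brighter probe, A_73_117622 on chromosome 26 (positions 15393349 to 15393408 of build Btau 3.1, minus strand), had levels of 3.42, 1.50, 2.22 and 3.26 in cows 1 to 4 at day 10 and of 2.14, 2.60, 3.21 and 1.81 at day 30. At day 50 the levels were 3.36, 2.70, 3.29 and 2.82, and at day 100 they were 4.13, 1.75, 3.55 and 3.43. The times overlapped throughout, and cow 2 had the lowest level at days 10, 50 and 100. The log2 difference was 0.61 ± 0.45 at day 100 over day 10 (SE, limma adjusted p = 0.408), higher in 4 of 4 cows, with a 95% interval of -0.38 to 1.60. The other probe lies on the same strand at chr26:15395370-15395429 and is shown as a separate stretch of the transcript, whose levels varied with those of the first.
RBP4 A_73_P347541: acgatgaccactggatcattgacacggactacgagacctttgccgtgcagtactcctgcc
This probe was dimmer, with levels from -2.66 to 1.86, and followed the brighter one with r = 0.96 over the 16 arrays. Its log2 difference at day 100 over day 10 was 1.26 ± 0.68 (SE, limma adjusted p = 0.265), higher in 3 of 4 cows.

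STRA6, the receptor through which cells take up retinol from RBP4, varied widely within each time. Probe A_73_106763 on chromosome 21 (positions 34584674 to 34584732, plus strand) had levels of 3.29, 0.87, 1.66 and 3.64 in cows 1 to 4 at day 10, and of 1.31, 2.61, 4.16 and -1.18 at day 30. At day 50 they were 3.76, 1.27, 4.26 and 4.32, and at day 100 they were 1.07, 0.46, 4.00 and 3.68. Cow 2 was lowest at days 10, 50 and 100, and cow 4 was lowest at day 30. The log2 difference was 1.04 ± 1.09 at day 50 over day 10 (SE, limma adjusted p = 0.656), higher in 4 of 4 cows, and -0.06 ± 1.09 at day 100 over day 10 (adjusted p = 0.978), with a 95% interval of -2.45 to 2.33. That direction turned under array median scaling, where the difference was 0.18.

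A pair of STRA6 probes covered nearly the same bases. The second, A_73_P111606, starts 3 bases later, shares 57 bases with the first and differs from it by G35A and T50A, with positions counted from 1 at the 5′ end of A_73_106763. The 30 bases around both differences are shown, with the differing bases in capitals.
STRA6 A_73_106763: agaggttaGtgtgctctctgtaaTaaactt
STRA6 A_73_P111606: agaggttaAtgtgctctctgtaaAaaactt
Across the 16 arrays the pair had r = 1.00, and the log2 differences at day 50 over day 10 were 1.04 and 0.83. A_73_P277371 (chromosome 21, positions 34584218 to 34584277) had r = 0.96 with A_73_106763, and the dimmer A_73_P400776 (positions 34569558 to 34569617) had r = 0.84. The fifth probe, A_73_P343436 at positions 34561613 to 34561672, was well above background on 1 array only, cow 1 at day 10, where its level was -4.35, and stood between -9.31 and -7.49 on all others.

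SDR16C5, a short-chain dehydrogenase that oxidises retinol to retinaldehyde, was measured by 1 probe, A_73_112816 (chr14:23317572-23317631, minus strand). Its first 30 of 60 bases are shown because it is the probe behind both calls.
SDR16C5 A_73_112816: agaccacaagcaccagtctgctgtctagac
Its level was -1.83, -6.34, -3.61 and -3.54 in cows 1 to 4 at day 10, where the array of cow 2 was not well above background. At day 30 it was 1.05, -2.49, -0.90 and -3.58, at day 50 it was 3.13, 2.66, 2.28 and -0.58, and at day 100 it was 2.45, -3.17, 3.17 and 3.61. All 4 day 50 levels lay above all 4 day 10 levels, while the day 100 and day 10 levels overlapped because of cow 2. The means were -3.83 ± 1.86 at day 10, -1.48 ± 2.01 at day 30, 1.87 ± 1.67 at day 50 and 1.52 ± 3.16 at day 100 (SD, n = 4).

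On the log2 scale SDR16C5 rose by 5.70 ± 1.21 at day 50 over day 10 (SE, limma adjusted p = 0.0434), with a 95% interval of 3.05 to 8.35. The difference in single cows was 4.97, 9.00, 5.88 and 2.96. At day 100 over day 10 the rise was 5.35 ± 1.21 (SE, limma adjusted p = 0.0339), and the single cows gave 4.28, 3.17, 6.78 and 7.16. At day 30 over day 10 the difference was 2.35 ± 1.21 (adjusted p = 0.409), positive in 3 of 4 cows and -0.04 in cow 4. Day 50 over day 30 gave 3.35 ± 1.21 (SE, limma adjusted p = 0.494), higher in 4 of 4 cows, and the F test over the 4 times gave an adjusted p of 0.0757.

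The SDR16C5 calls did not hold in many fits on fewer arrays. At day 50 the call was lost without any 1 of the 4 cows (adjusted p from 0.0537 to 0.224). Over all probes the calls at day 50 dropped too, from 548 to 23, 132, 21 and 149 without cows 1 to 4. The day 100 call was lost without cow 1, 3 or 4 (0.124, 0.219 and 0.0863) but not without cow 2 (0.0209). There the calls over all probes went from 1527 to 73, 83 and 193 without cow 1, 3 or 4, and to 1574 without cow 2. Whether the losses are particular to SDR16C5 was not tested. Of the single arrays, the day 50 call held without the day 30 array of cow 4 or the day 100 array of cow 1, 2 or 4, and was lost without any other. At day 100 it was lost without any day 10 array, without the day 50 arrays of cows 1 and 3 and without the day 100 arrays of cows 3 and 4. Without the cow block neither call passed, with an adjusted p of 0.0739 for day 50 and of 0.0549 for day 100, and neither passed on the 8 arrays of the 2 times alone (0.0571 and 0.101). Over all probes, 436 and 1359 were called without the block at days 50 and 100, and 889 and 44 on the 8 arrays. The SDR16C5 estimates were positive in every one of the fits above, from 4.53 to 6.62 at day 50 and from 4.17 to 6.61 at day 100.

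SDR16C5 also varied with the epithelial marker lists. Over the 16 arrays its level had r = 0.69 with the epithelial markers and r = 0.75 with the markers of ciliated epithelium (11 of 13 tested), which ranged from -1.72 to -0.77 at day 10, from -2.27 to 2.24 at day 30, from 0.18 to 1.88 at day 50 and from -2.02 to 1.88 at day 100. The 16 arrays share 4 cows and 4 slides, so these are descriptions. With the difference between the epithelial and smooth muscle markers as a covariate, the rise was 5.32 ± 1.23 at day 50 (SE, limma adjusted p = 0.0428). At day 100 it was 5.06 ± 1.21 (adjusted p = 0.0334). The covariate fit called 1308 and 2780 of all probes at these times, against 548 and 1527 without it. Its adjusted p is therefore not comparable with that of the fit without the covariate, and the part of epithelial cells was not tested. The part of ciliated cells in the result was not tested. Among 12995 genes, the levels most like those of SDR16C5 over the 16 arrays were those of MCOLN2, an endolysosomal cation channel (r = 0.96), CROT, a peroxisomal carnitine octanoyltransferase (r = 0.95), and EPHX2, an epoxide hydrolase (r = 0.95).

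**Figure D2:**
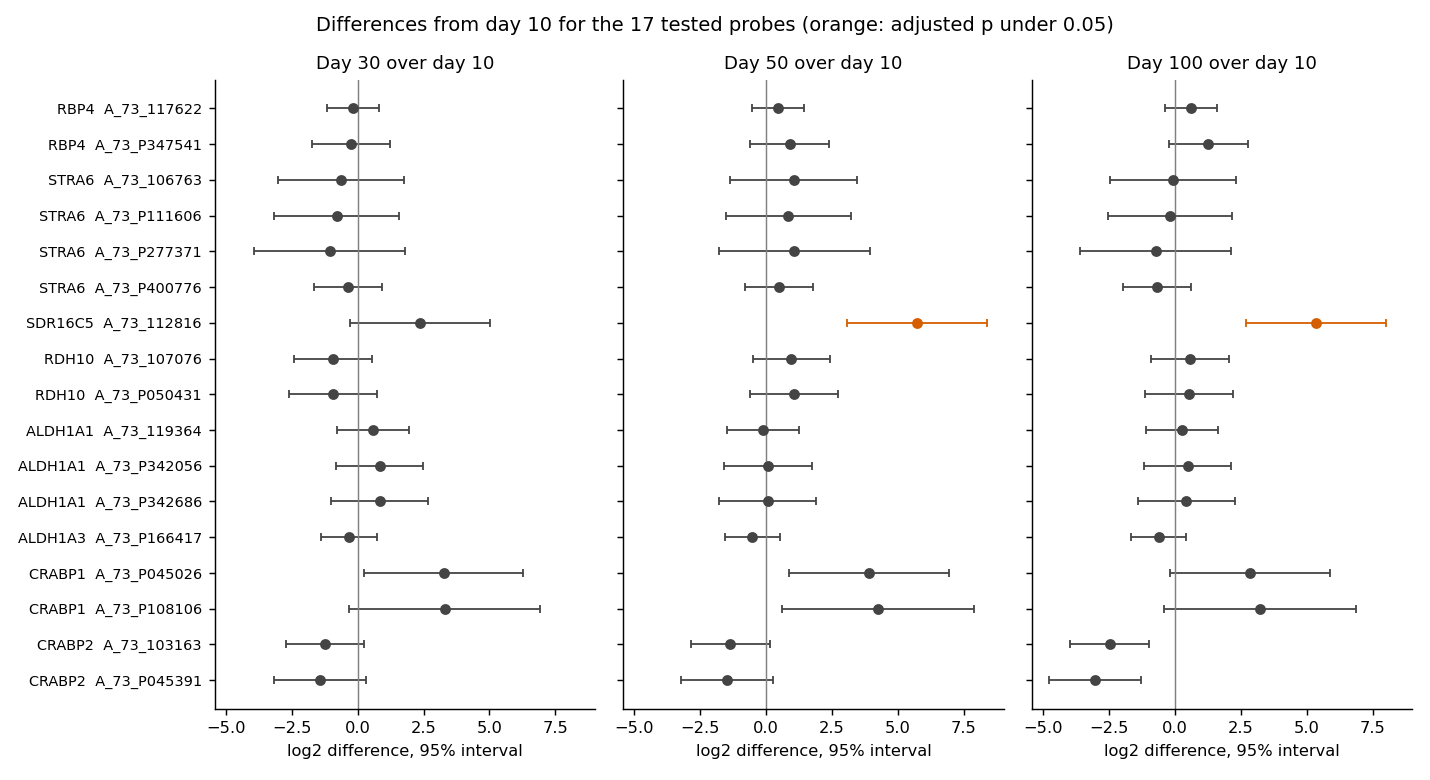
Log2 differences of days 30, 50 and 100 from day 10 for the 17 tested member probes, with 95% intervals from limma and the brightest probe of each gene listed first. The orange points, SDR16C5 at day 50 and day 100, passed the adjusted threshold. Unadjusted intervals that exclude 0 are also seen for the brighter CRABP1 probe at day 30, for both CRABP1 probes at day 50 and for both CRABP2 probes at day 100.

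RDH10, the other retinol dehydrogenase of the list and the main one in embryonic development, was measured by 2 probes for which the file gives no chromosomal position. Probe A_73_107076 stood at 3.03, 0.47, 1.61 and 2.73 in cows 1 to 4 at day 10 and at 1.49, 1.57, 1.36 and -0.28 at day 30. Its levels were 3.12, 1.77, 3.90 and 2.88 at day 50, and 3.83, -0.12, 3.21 and 3.21 at day 100. All day 50 levels lay above all day 30 levels, cow 4 was lowest at day 30 and cow 2 at days 10, 50 and 100. The log2 difference at day 50 over day 30 was 1.88 ± 0.67 (SE, limma adjusted p = 0.492), higher in 4 of 4 cows. Relative to day 10, day 50 differed by 0.96 ± 0.67 (adjusted p = 0.479) and day 100 by 0.57 ± 0.67 (adjusted p = 0.614). Its companion A_73_P050431 had r = 0.99 with it and a day 50 over day 30 difference of 1.97 ± 0.76 (adjusted p = 0.513), there with overlapping groups.

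**Figure D3:**
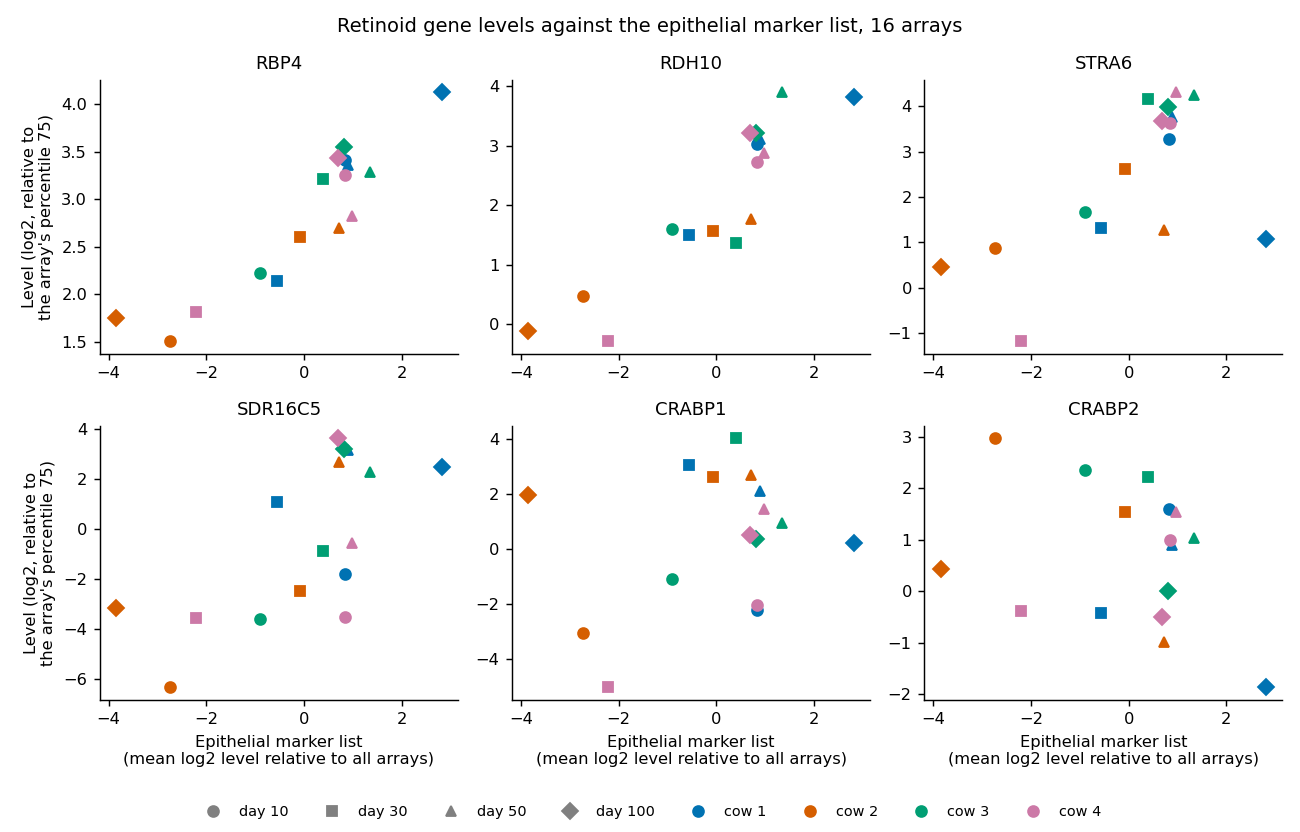
Level of the brightest probe of 6 genes (log2, relative to the array's percentile 75) against the mean level of the epithelial marker list on the same array (log2, relative to all arrays), for 16 arrays. Symbols give the day and colours the cow. RBP4 and RDH10 follow the list (r = 0.92 and 0.90), and CRABP1 and CRABP2 do so less (r = 0.26 and -0.31).

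The levels of RBP4 and RDH10 tracked the epithelial markers most closely among the members. Over the 16 arrays r with the epithelial markers was 0.92 for RBP4, 0.90 for RDH10, 0.62 for STRA6, 0.42 for ALDH1A1 and -0.19 for ALDH1A3. With smooth muscle markers r was -0.85 for RBP4 and -0.80 for RDH10, and with T and B cell markers (9 of 11 tested) it was 0.80 and 0.74. RBP4 and RDH10 had r = 0.89 with each other, and RDH10 and STRA6 r = 0.72. The arrays with low RBP4, RDH10 and STRA6, cow 2 at days 10 and 100 and cow 4 at day 30, were the 3 with the lowest epithelial level. The part of tissue make-up in these genes' differences between times was not tested for each gene.

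The ALDH1A genes encode the dehydrogenases that make retinoic acid from retinaldehyde, and none of their probes passed. ALDH1A1 probe A_73_119364 (chromosome 8, positions 51403797 to 51403856, minus strand) had levels of 3.79, 1.12, 2.08 and 3.76 in cows 1 to 4 at day 10 and of 2.64, 3.59, 3.53 and 3.36 at day 30. At day 50 they were 2.92, 3.17, 2.48 and 1.73, and at day 100 they were 2.59, 1.94, 4.00 and 3.34. At day 10 cows 1 and 4 stood above cows 2 and 3, and at the later times that order was not kept. In cows 1 and 4 at day 10 the neutrophil markers (6 of 10 tested) stood at 4.44 and 3.72, against 0.48 and -0.02 in cows 2 and 3, and the epithelial markers were higher in cows 1 and 4 too. The part of either cell type in ALDH1A1 was not tested.

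For ALDH1A1 the log2 difference was 0.59 ± 0.63 at day 30, -0.11 ± 0.63 at day 50 and 0.28 ± 0.63 at day 100, each over day 10 (SE, limma adjusted p = 0.691, 0.946 and 0.804). The interval at day 100 ran from -1.09 to 1.65, and leaving out cow 3 turned the estimate to -0.27. A_73_P342056 (positions 51404031 to 51404090) had r = 0.97 with the first probe. The third probe is shown because its coordinates span 1400 positions for 60 bases, chr8:51425577-51426976.
ALDH1A1 A_73_P342686: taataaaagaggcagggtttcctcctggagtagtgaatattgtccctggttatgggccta
This probe read lower levels, from -3.22 to 0.77, with r = 0.99 with the first, so 3 separate stretches of ALDH1A1 gave nearly the same pattern over the arrays.

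ALDH1A3 was read by A_73_P166417 (chromosome 21, positions 4261444 to 4261503, minus strand). Its levels were -0.55, -2.44, -1.63 and -0.67 in cows 1 to 4 at day 10, -2.05, -2.30, -1.22 and -1.02 at day 30, -1.71, -2.49, -1.50 and -1.68 at day 50, and -3.17, -1.26, -1.36 and -1.93 at day 100. Cow 2 was lowest at days 10, 30 and 50 and highest at day 100. The log2 difference was -0.61 ± 0.48 at day 100 over day 10 (SE, limma adjusted p = 0.442), lower in 2 of 4 cows, and without cow 1 it was 0.06. Over the 16 arrays ALDH1A3 had r = -0.70 with erythroid markers (4 of 6 tested), 0.68 with stromal (12 of 14 tested), 0.63 with endothelial (11 of 11 tested) and 0.61 with macrophage markers. The part of these cells in ALDH1A3 was not tested.

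ALDH1A2, the ALDH1A enzyme that makes most retinoic acid in the embryo, has no probe under that name. One probe named by a transcript accession, A_73_P055461, was matched to it through the RefSeq gene table and is not counted among the 19. It was well above background on 7 of 16 arrays, with levels from -8.67 to -4.65. The difference at day 100 over day 10 was -1.21 ± 0.88 (SE, limma adjusted p = 0.404). At day 100 the probe exceeded background clearly in 1 of 4 cows, and at day 10 in 3 of 4.

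CRABP1, a cytosolic protein that binds retinoic acid, was lowest at day 10 in 3 cows and at day 30 in cow 4. Probe A_73_P045026 (chromosome 21, positions 30797440 to 30797499, plus strand) stood at -2.21, -3.05, -1.08 and -2.04 in cows 1 to 4 at day 10 and at 3.06, 2.61, 4.04 and -5.04 at day 30. Its levels were 2.10, 2.71, 0.96 and 1.46 at day 50, and 0.20, 1.99, 0.37 and 0.52 at day 100. All levels at days 50 and 100 lay above all levels at day 10. At day 30 cows 1 and 3 had their highest level, cow 2 was close to its highest, and cow 4 had the lowest of all 16 arrays.

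The log2 difference of CRABP1 was 3.90 ± 1.38 at day 50 over day 10 (SE, limma adjusted p = 0.165) and 2.86 ± 1.38 at day 100 over day 10 (adjusted p = 0.217), higher in 4 of 4 cows at both. At day 30 over day 10 it was 3.26 ± 1.38 (adjusted p = 0.324), with 5.27, 5.66 and 5.11 in cows 1 to 3 and -3.00 in cow 4. Without the day 30 array of cow 4 alone, CRABP1 passed at every later time. The difference was then 5.27 ± 0.64 at day 30 (adjusted p = 0.0132), 3.90 ± 0.58 at day 50 (0.0143) and 2.86 ± 0.58 at day 100 (0.0229). At days 50 and 100 the estimates were the same as with all arrays, and only the SE was smaller. That fit called 50, 715 and 2372 of all probes at days 30, 50 and 100, against 139, 548 and 1527 with all arrays. With array weights, which lower the influence of arrays that depart from the fit, CRABP1 passed at day 30 (4.76 ± 0.99, adjusted p = 0.0481) and at day 50 (3.86 ± 0.88, adjusted p = 0.0188). The weighted fit called 369 and 4293 of all probes at these times, against 139 and 548 without weights. The day 30 array of cow 4 also had low epithelial (-2.21) and ciliated epithelial (-2.27) markers, and leaving it out was 1 of 16 such omissions. Over all arrays r was 0.26 with the epithelial, 0.54 with the ciliated epithelial, -0.59 with the neutrophil and -0.48 with the macrophage markers. The part of tissue make-up in the CRABP1 levels, on that array or between times, was not tested.

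A second CRABP1 probe had r = 1.00 with the first. It is shown because its coordinates span 3740 positions for 60 bases, chr21:30793589-30797328, plus strand.
CRABP1 A_73_P108106: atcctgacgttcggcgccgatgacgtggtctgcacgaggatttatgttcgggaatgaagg
Its levels were -4.34, -5.28, -2.95 and -3.97 at day 10, 1.37, 0.99, 2.60 and -8.29 at day 30, 0.35, 0.85, -0.72 and -0.05 at day 50, and -1.50, 0.39, -1.34 and -1.17 at day 100. The array of cow 4 at day 30 was not well above background on this probe. Its log2 difference at day 50 over day 10 was 4.24 ± 1.66 (SE, limma adjusted p = 0.201), and 0.0138 without that array. This probe also passed at day 50 on the 8 arrays of days 50 and 10 alone (adjusted p = 0.0484).

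CRABP2, which passes retinoic acid on to its nuclear receptor, ran the other way. Probe A_73_103163 (chromosome 3, positions 15551944 to 15552003, plus strand) stood at 1.59, 2.97, 2.35 and 0.99 in cows 1 to 4 at day 10 and at -0.42, 1.54, 2.22 and -0.39 at day 30. Its levels were 0.89, -0.98, 1.04 and 1.54 at day 50, and -1.87, 0.43, 0.00 and -0.51 at day 100. Every day 100 level lay below every day 10 level, and days 30 and 50 overlapped with both. The log2 difference at day 100 over day 10 was -2.46 ± 0.68 (SE, limma adjusted p = 0.0611), lower in 4 of 4 cows, with a 95% interval of -3.95 to -0.97. It was -1.23 ± 0.68 at day 30 and -1.35 ± 0.68 at day 50 over day 10 (adjusted p = 0.436 and 0.314).

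The CRABP2 difference at day 100 passed under normexp background correction (-2.30, adjusted p = 0.0457), without the day 50 array of cow 2 (adjusted p = 0.0227) and without the day 100 array of cow 2 (0.0486). These fits called 1982, 1177 and 3102 of all probes, against 1527 in the fit reported above. In the other 27 of 30 alternatives this probe was not called, with a limma adjusted p of up to 0.236. Over the 16 arrays CRABP2 had r = 0.70 with stromal, -0.67 with erythroid and 0.61 with macrophage markers, and the macrophage list ranged from -1.40 to 0.12 at day 100, against 0.80 to 2.71 at day 10. The stromal list ranged from -1.75 to 0.38 at day 100, against 0.23 to 0.67 at day 10. The average of the erythroid list ranged from 0.29 to 3.04 at day 100, against -1.24 to -0.21 at day 10, without overlap. Its 4 tested genes did not move together at day 100 over day 10, where limma called 1 higher and 1 lower. HBB rose (limma adjusted p = 0.0465) and SLC4A1 fell (0.047). The part of stromal, macrophage or erythroid cells in the CRABP2 difference was not tested. A dimmer CRABP2 probe on the same strand, at chr3:15546707-15546766, is shown as a second stretch of the transcript.
CRABP2 A_73_P045391: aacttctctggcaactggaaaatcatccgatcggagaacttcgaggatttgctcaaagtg
Its levels were -7.74, -5.99, -6.60 and -6.11 at day 100, clearly above background in 1 cow, against -4.57, -2.35, -2.98 and -4.47 at day 10, above it in 4 cows. The measured log2 difference was -3.01 ± 0.80 (SE, limma adjusted p = 0.055), with most day 100 values at background level, lower in 4 of 4 cows, and it passed without the day 50 array of cow 2 (0.0227) or the day 30 array of cow 4 (0.0442). The third CRABP2 probe, A_73_P116711, maps to the minus strand (positions 15545384 to 15545443), opposite to the other 2, and was well above background on 3 of 16 arrays.

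The other genes of the retinoid pathway were taken from a list of 84 symbols covering carriers, storage, oxidoreductases, degradation, nuclear receptors and response genes, of which 73 were on the array and 59 had a tested brightest probe. At day 30 over day 10, 0 rose and 1 fell, against 0.0121% of all probes called higher and 0.407% called lower. At day 50 over day 10, 1 rose and 3 fell, against 0.597% and 1.05%, and at day 100 over day 10, 0 rose and 5 fell, against 1.46% and 3.14%. Between the later times 0 passed in limma. The macrophage markers fell over the same comparisons, and the part of macrophages in the falls of pathway genes was not tested. The median log2 difference over the 59 genes was 0.02 at day 30, 0.12 at day 50 and 0.00 at day 100, each over day 10. Of 17 tested retinoic acid response genes and 2 tested genes of retinoic acid degradation, limma called 0. The largest share of all probes called in a comparison was 4.6%, at day 100 over day 10. Beside that share, 0 of so few genes does not show that they were unchanged.

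LRAT, which esterifies retinol for storage, was the pathway gene that rose, and its levels had r = 0.88 with those of SDR16C5 over the 16 arrays. LRAT is named because it was called at day 50 over day 10, where SDR16C5 was called too. A high r on the same arrays was therefore likely beforehand and is no separate evidence. LRAT stood at -4.35, -4.82, -5.00 and -4.51 in cows 1 to 4 at day 10, at 0.09, -2.05, -2.22 and -4.44 at day 30, at 1.15, 0.51, -0.13 and -0.16 at day 50, and at -1.87, -4.78, -1.01 and 1.36 at day 100. All day 50 levels lay above all day 10 levels, and cow 2 at day 100 was back among the day 10 levels, as for SDR16C5. LRAT rose by 5.01 ± 1.09 at day 50 over day 10 (SE, limma adjusted p = 0.0466), in 4 of 4 cows, and differed by 3.09 ± 1.09 at day 100 over day 10 (adjusted p = 0.109). Of its other 2 probes 1 passed at day 50 (4.82 ± 1.02, adjusted p = 0.0434) and 1 did not (5.47 ± 1.37, 0.0753). The call held in 1 of 4 fits without a cow (adjusted p from 0.0423 to 0.228) and in 4 of 16 without an array.

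**Figure D4:**
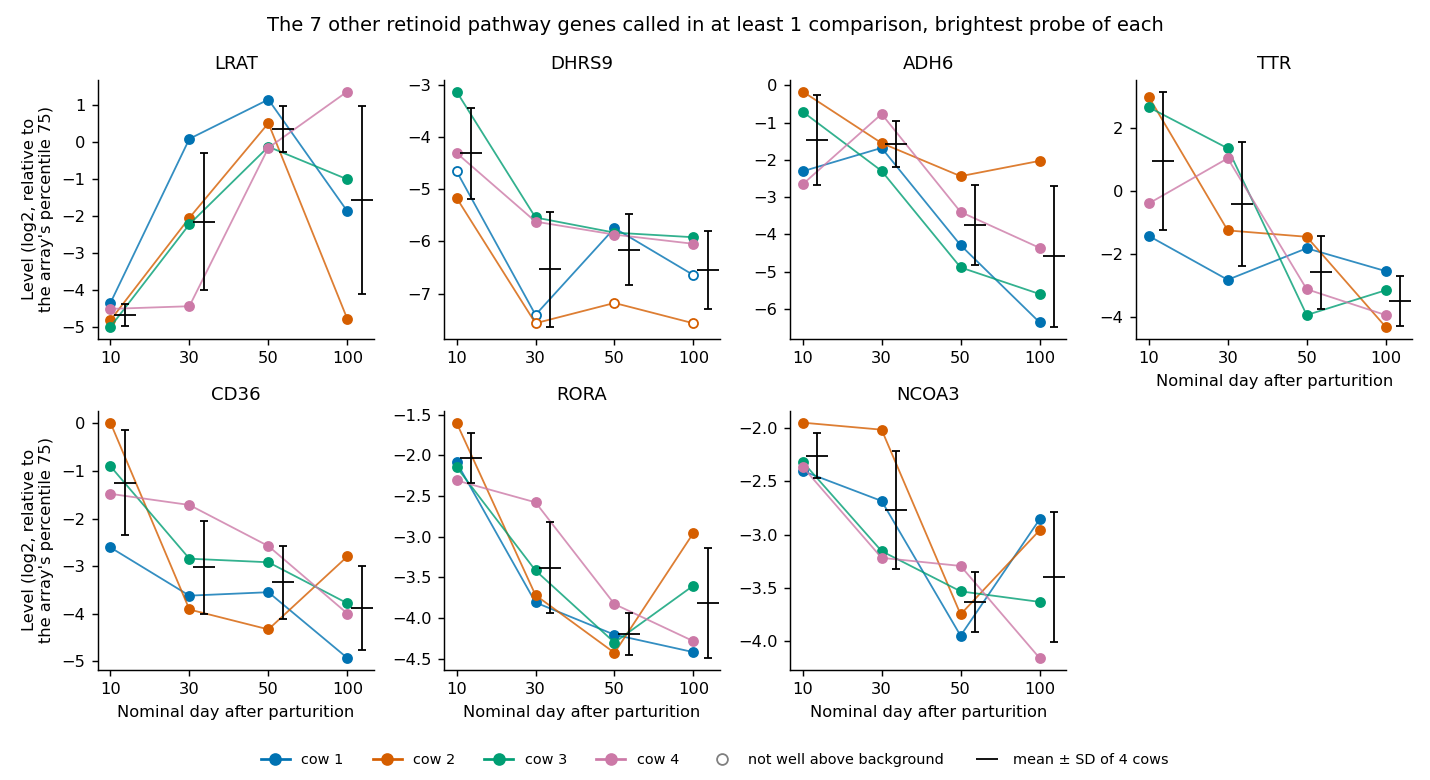
Levels of the 7 other retinoid pathway genes that passed in at least 1 comparison (log2, relative to the array's percentile 75, brightest probe, separate axes) against the nominal day after parturition (evenly spaced). Lines are cows, open points were not well above background, and black bars are the mean and SD of 4 cows. LRAT stood between -0.16 and 1.15 at day 50, against -5.00 to -4.35 at day 10, and the other 6 genes had their highest mean at day 10.

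Among the oxidoreductases, DHRS9, a short-chain dehydrogenase able to oxidise retinol, fell by 2.22 ± 0.31 at day 30, by 1.84 ± 0.31 at day 50 and by 2.23 ± 0.31 at day 100, each over day 10 (SE, limma adjusted p = 0.0148, 0.0237 and 0.00677), in 4 of 4 cows at each time. Its probe was dim, well above background on 10 of 16 arrays, and the fall was not called under normexp background correction (adjusted p of 0.741, 0.485 and 0.995). ADH6, an alcohol dehydrogenase, had levels of -6.36, -2.03, -5.60 and -4.36 at day 100, against -2.31, -0.17, -0.71 and -2.66 at day 10. ADH6 fell by 3.13 ± 0.65 at day 100 over day 10 (SE, limma adjusted p = 0.0267), in 4 of 4 cows, and its second probe fell by 3.24 ± 0.67 (0.0261).

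Carriers and uptake genes had 6 tested members, of which 2 fell at day 100, where 3.14% of all probes were called lower. TTR, which carries RBP4 with its retinol in plasma, stood at -2.54, -4.32, -3.15 and -3.94 at day 100, against -1.42, 3.00, 2.67 and -0.39 at day 10. TTR fell by 4.45 ± 1.11 (SE, limma adjusted p = 0.0465) and by 4.51 ± 1.11 on its second probe (0.0441), in 4 of 4 cows on the brighter probe. CD36, a scavenger receptor for lipids, fell by 2.63 ± 0.57 at day 100 over day 10 (SE, limma adjusted p = 0.0301), in 4 of 4 cows, while its dimmer second probe differed by -1.59 ± 0.71 (0.188).

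Nuclear receptors and their co-factors had 13 tested members, of which 2 fell at day 50, where 1.05% of all probes were called lower. RORA, an orphan nuclear receptor, fell by 2.16 ± 0.35 at day 50 and by 1.78 ± 0.35 at day 100, each over day 10 (SE, limma adjusted p = 0.0203 and 0.0224), in 4 of 4 cows. NCOA3, a coactivator of nuclear receptors, fell by 1.37 ± 0.30 at day 50 over day 10 (SE, limma adjusted p = 0.0487), in 4 of 4 cows, and its second probe differed by -1.46 ± 0.37 (0.073). Leaving out 1 cow ended most of these calls: CD36, ADH6 and RORA held in 1 of 4 such fits, TTR and NCOA3 in 0 of 4, and DHRS9 in 0, 0 and 3 of 4 at days 30, 50 and 100. Most of these fits also called fewer of all probes. Normexp background correction also ended the calls of CD36 (adjusted p = 0.0524), ADH6 (0.0618), NCOA3 (0.112) and RORA at day 100 (0.0816). Without the cow block the calls of ADH6 (0.0517), NCOA3 (0.0521) and DHRS9 at days 30 and 50 (0.145 and 0.126) were lost.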

How the data were processed

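Endometrial RNA of 4 cows at 4 times was measured on 16 one-colour arrays. Per the file headers, the deposited processed intensity is the signal after background subtraction and spatial detrending by Agilent Feature Extraction 11.5.1.1, while the submitters' processing notes name version 10.5.1.1. Probe coordinates are those of build Btau 3.1, per the file headers, and exon or UTR positions were not analysed here. The authors also deposited a log2 table, which matched the log2 processed signal, shifted per array and centred per probe (r from 0.9998 to 1, column medians from -0.16 to 0.22), and served as an alternative.

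From the deposited intensity values, spots marked nonuniform (4 to 125 per array) were left out. Values were put on the log2 scale, scaled by the array's percentile 75 and averaged where a probe had several spots. A probe was tested if it was well above background on 4 or more of the 16 arrays (33182, with 10471 left out). No probe was saturated. Between 61.1% and 76.9% of probes per array were well above background, with median processed signals of 51.1 to 154. Precision is limited by the number of arrays. limma 3.58.1 in R 4.3.3 fitted time and cow with moderated variances, two-sided, with Benjamini-Hochberg adjustment over all tested probes and a threshold of 0.05. It was tested on simulated data. Intervals are at 95%.

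The series design states that the 4 biopsies came from the same individuals, so samples were paired by cow. After removing the mean of each time, the median correlation over probes was 0.12 for 24 pairs of arrays from 1 cow and -0.04 for 72 pairs from different cows. The brightest probe of a gene is the one with the highest mean level. Symbols came from the files and from RefSeq gene names, through which 22205 probes matched by accession. All members are described, other pathway genes are named if their brightest probe passed in any comparison, and genes of similar pattern are the 3 with the highest r. Members and gene lists were chosen with earlier results of these data known. Alternatives were other normalizations and filters, no cow block, array weights, a tissue covariate, the arrays of 2 times alone, and leaving out each cow or array.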

Additional observations from a re-analysis of the deposited data

Results flagged for a closer look

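Single arrays stood apart in 7 of 68 groups of 4 arrays, by Dixon's test on the gap to the nearest other cow, which chance gives in about 1 of 20 groups. The groups are not independent, since probes of 1 gene followed each other closely: the flags cover RDH10 on 2 arrays with both probes, CRABP1 on 1 array with both probes and 1 STRA6 probe on 1 array, so their number cannot be set against that share. In cow 4 at day 30, RDH10 stood at -0.28, against 1.36 to 1.57 in the other cows, and at -0.85 on its second probe, against 0.63 to 0.88. In the same biopsy CRABP1 stood at -5.04, against 2.61 to 4.04, and at -8.29 on its second probe, against 0.99 to 2.60, where it was not well above background. In cow 2 at day 100, RDH10 stood at -0.12, against 3.21 to 3.83, and at -1.30 on its second probe, against 2.55 to 3.24. In cow 2 at day 50, STRA6 probe A_73_P111606 stood at 0.24, against 2.75 to 3.26. The epithelial markers stood at -2.21 in cow 4 at day 30, at -3.85 in cow 2 at day 100 and at 0.72 in cow 2 at day 50.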

How the results depend on the processing

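The number of member probes called, with limma's adjusted p, was 1 at day 50 over day 10, 1 at day 100 over day 10 and 0 in the other comparisons. The number of calls over all probes changed between the alternatives too and is given beside it. For day 30 over day 10 the member count was 1 with array weights and 0 to 2 with a cow or array left out. Over all probes it was 369 and 14 to 220 there, against 139 with all arrays and equal weights. For day 50 over day 10 the member count was 0 with no replicate block, 3 with array weights and 0 to 3 with a cow or array left out. Over all probes it was 436, 4293 and 21 to 970 there, against 548. On the 8 arrays of those times alone the 1 member probe called was of CRABP1, not SDR16C5, and 889 of all probes were called. For day 100 over day 10 the member count was 2 under normexp, 0 with no replicate block, 0 with only the 8 arrays of both times and 0 to 4 with a cow or array left out. Over all probes it was 1982, 1359, 44 and 73 to 3102 there, against 1527. The F test called 1 member probe under normexp, 2 with array weights and 0 to 2 with a cow or array left out, and its calls over all probes are not given for these fits. The comparisons between later times gave 0 member probes in all 30 alternatives, where at most 188 of all probes were called.

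At day 100 over day 10, the direction turned for 3 genes that were not called. ALDH1A1 gave -0.27, -0.23, -0.06 and -0.12 without cow 3 or single arrays, with a range of -0.27 to 0.77 over all such omissions. ALDH1A3 gave 0.064 without cow 1, with a range of -1.20 to 0.064. STRA6 gave 0.18 with array median scaling, 0.37 with array weights, and 0.66, 0.05, 0.39, 0.45, 0.25 and 0.43 without cow 1, cow 2 or single arrays, with a range of -0.86 to 0.66. SDR16C5, RDH10, RBP4, CRABP1 and CRABP2 kept their direction in all 30 alternatives. Array median scaling moved the median of all probes by 0.24 at day 100 over day 10 and by 0.25 at day 100 over day 50, and normexp moved it by 0.10 and 0.16. The causes of these changes were not tested. Dim probes, such as those of ALDH1A2 and the second CRABP2 probe, limit what can be said of low levels, and 4 cows limit every comparison.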
